A study of Mus musculus with 47 samples.

Results

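In mouse tibialis anterior muscle, 91 of 13500 measured genes had a time-of-day difference of the same sign in 2 sham-operated conditions and the opposite sign in adrenalectomised mice given dexamethasone in the evening. They were chosen from measured values: FPKM was put on a log2(FPKM + 1) scale, and the mean at ZT0 was subtracted from the mean at ZT12 in each condition. A gene was kept when this difference was at least 0.3 in size with 1 sign in WT sham and RE-RE sham, and at least 0.3 in size with the other sign in WT ADX+DEX. Of all genes, 5.35% were at least 0.3 higher and 5.36% at least 0.3 lower at ZT12 in WT sham. These shares were 3.50% and 3.97% in RE-RE sham, and 6.94% and 7.65% in WT ADX+DEX. Of the 91, 61 were higher at ZT12 in both sham conditions and lower at ZT12 under dexamethasone, and are called evening-high here. The other 30 were lower at ZT12 in both sham conditions and higher under dexamethasone, and are called morning-high. Because the rule fixed these differences, the values of the sham and dexamethasone conditions are a description with no test. Tests were made in WT ADX, RE-RE ADX and WT ADX+ADR, which the rule did not use.

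Glucocorticoids are steroid hormones of the adrenal cortex that bind the glucocorticoid receptor, which then acts on DNA to raise or lower transcription of target genes. In nocturnal rodents their release normally peaks around the start of the dark phase, so that target genes in muscle, liver and fat can follow the hormone as well as the cell's own clock. In muscle, known target genes act in protein breakdown, amino acid and glucose metabolism, and metal binding. Adrenaline, from the adrenal medulla, acts through beta-adrenergic receptors and cyclic AMP, and induces fast-responding transcription factors.

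The series holds 47 bulk RNA-seq libraries, each from the tibialis anterior of a female C57BL/6 mouse fed ad libitum and taken at ZT0 (lights on) or ZT12. Wild-type (WT) mice had sham surgery, or removal of both adrenal glands with saline and glucose to drink (ADX), or ADX with intraperitoneal adrenaline at 0.5 mg/kg (ADX+ADR), or ADX with intraperitoneal dexamethasone, a synthetic glucocorticoid, at 5 mg/kg (ADX+DEX). RE-RE mice had sham surgery or ADX, and carried a Bmal1 (Arntl) allele blocked by a floxed stop cassette, Bmal1(stopFL/stopFL), with the Syt10-Cre(-/tg) and Hsa-Cre(-/tg) drivers, so that this clock gene is restored where a driver is active, in brain and in skeletal muscle, and not in other cells. WT ADX at ZT0 had 3 libraries and each of the other 11 groups had 4. Ages at ZT0 and ZT12 were 9 to 11 and 10 to 12 weeks in WT sham, 12 to 15 and 13 to 17 in WT ADX, 14 and 13 to 14 in WT ADX+ADR, and 11 to 14 and 14 in WT ADX+DEX. In RE-RE sham they were 9 to 14 and 11 to 14 weeks, and in RE-RE ADX 8 to 15 and 12 to 18 weeks. Injections were given at ZT12 on 10 days, and the protocol also names a wait of 2 weeks, so the time between the last dose and sampling is not clear from the labels. No vehicle-injected group was analysed here, so the injection and the hormone cannot be told apart. A run or processing difference between conditions was not tested. Nothing in the labels describes litters or cages, so p-values measure only the spread between these libraries, which may be partly technical.

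The depth recovered from the steps of low values was 16.3 to 35.8 M reads (median 22.7 M). Markers of muscle fibres summed to between 6.94e+04 and 1.02e+05 FPKM in every library, which checks the labelled tissue. Arntl was at a mean of 16.8 FPKM at ZT0 and 0.388 FPKM at ZT12 in WT sham, and at 14.4 and 0.0819 FPKM in RE-RE sham, where 3 of the 4 ZT12 libraries were listed at 0. Under dexamethasone Arntl was also higher at ZT0, at a mean of 23.4 FPKM against 5.33 FPKM at ZT12, so the sign of its time difference was the same as in sham. A value of exactly 0 FPKM was listed for 1.59% of all values but for 9.49% of the values of the 91 genes, and 45 of the 91 had at least 1 such value. The share was highest in WT ADX, with 26.7% at ZT0 and 19.8% at ZT12. Such a 0 is not read as absence of the transcript. In 7 libraries (WT sham replicates 4 and 8, RE-RE sham replicates 2 and 6, and RE-RE ADX replicates 1, 4 and 5) at most 1 low value was shared exactly with another library of the group, against 16 to 80 in the other 40, and these 7 are treated as standing apart.

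RefSeq gives a start-site window for 68 of the 91 genes. Upstream stretches of 250 bases from GRCm38.p6 are shown as examples for a pair of evening-high genes and a pair of morning-high genes described below. They do not stand for their classes, whose shares over all windows follow, and Irs2 is a member by narrow margins. Capitals mark the glucocorticoid receptor recognition hexamer AGAACA, or TGTTCT where it lies on the other strand, and the E-box CACGTG, the element bound by the CLOCK and BMAL1 proteins. Glul at chr1:153899679-153899928 (plus strand) and Sult1a1 at chr7:126676419-126676668 (minus strand) come first, then Pfkfb3 at chr2:11502091-11502340 (minus strand) and Irs2 at chr8:11008930-11009179 (minus strand).
Glul: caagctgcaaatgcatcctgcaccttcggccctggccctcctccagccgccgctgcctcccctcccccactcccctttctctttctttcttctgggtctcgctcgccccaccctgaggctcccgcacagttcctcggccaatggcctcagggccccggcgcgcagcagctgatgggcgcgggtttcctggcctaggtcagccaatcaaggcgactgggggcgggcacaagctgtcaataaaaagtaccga
Sult1a1: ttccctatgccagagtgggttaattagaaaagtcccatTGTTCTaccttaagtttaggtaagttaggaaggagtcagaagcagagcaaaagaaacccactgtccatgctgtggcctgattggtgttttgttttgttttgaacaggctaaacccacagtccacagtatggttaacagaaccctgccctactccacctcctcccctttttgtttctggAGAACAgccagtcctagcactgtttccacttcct
Pfkfb3: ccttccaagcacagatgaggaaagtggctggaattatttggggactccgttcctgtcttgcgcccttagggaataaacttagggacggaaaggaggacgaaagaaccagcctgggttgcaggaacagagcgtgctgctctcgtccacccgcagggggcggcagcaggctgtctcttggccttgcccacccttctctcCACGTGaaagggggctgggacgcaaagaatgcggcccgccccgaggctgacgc
Irs2: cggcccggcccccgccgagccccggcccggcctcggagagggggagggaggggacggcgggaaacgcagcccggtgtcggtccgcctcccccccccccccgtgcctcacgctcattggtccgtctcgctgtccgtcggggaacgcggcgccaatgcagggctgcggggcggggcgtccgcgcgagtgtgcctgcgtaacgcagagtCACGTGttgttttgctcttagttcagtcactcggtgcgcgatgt
The Sult1a1 stretch held the hexamer at 212 and 34 bases before the start, and the Glul stretch held neither motif. The Pfkfb3 stretch had an E-box 53 bases before the start, and the Irs2 stretch 44 bases before it. Pfkfb3 has another RefSeq start whose window held no E-box.

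Across the windows, which run from 250 bases before to 50 bases after a start, AGAACA on either strand was present in 8 of 67 evening-high windows (11.9%) and 1 of 27 morning-high windows (3.7%). In all 32851 windows of the genome the share was 19.0%. CACGTG was present in 5 evening-high windows (7.46%) and 6 morning-high windows (22.2%), against 7.15% of all windows. The E-box reads the same on both strands. Neither the D-box TTATGTAA nor the cyclic AMP element TGACGTCA was found in a member's window, and they were in 0.938% and 1.79% of all windows. The shorter cyclic AMP sequence TGACG, which is contained in TGACGTCA, was present in 22.4% of evening-high and 37% of morning-high windows, against 20.8% of all. Several genes have more than 1 window, and the windows of 1 gene can overlap. These counts describe letters in short windows, not binding.

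Of 547 genes with the same sign and at least 0.3 in both sham conditions, 221 (40.4%) kept that sign past 0.3 under dexamethasone, 91 (16.6%) had the other sign past 0.3, and 235 lay between. Among the 272 that were higher at ZT12 in sham, 61 (22.4%) had the other sign under dexamethasone, and among the 275 that were lower, 30 (10.9%) did. The same count in the conditions outside the rule was 23 (4.2%) in WT ADX, 11 (2.01%) in RE-RE ADX and 49 (8.96%) in WT ADX+ADR. The evening-high genes had a median time difference of 0.78 in WT sham, 0.62 in RE-RE sham and -0.58 in WT ADX+DEX on the log2(FPKM + 1) scale. For the morning-high genes these medians were -0.47, -0.44 and 0.5.

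**Figure D1:**
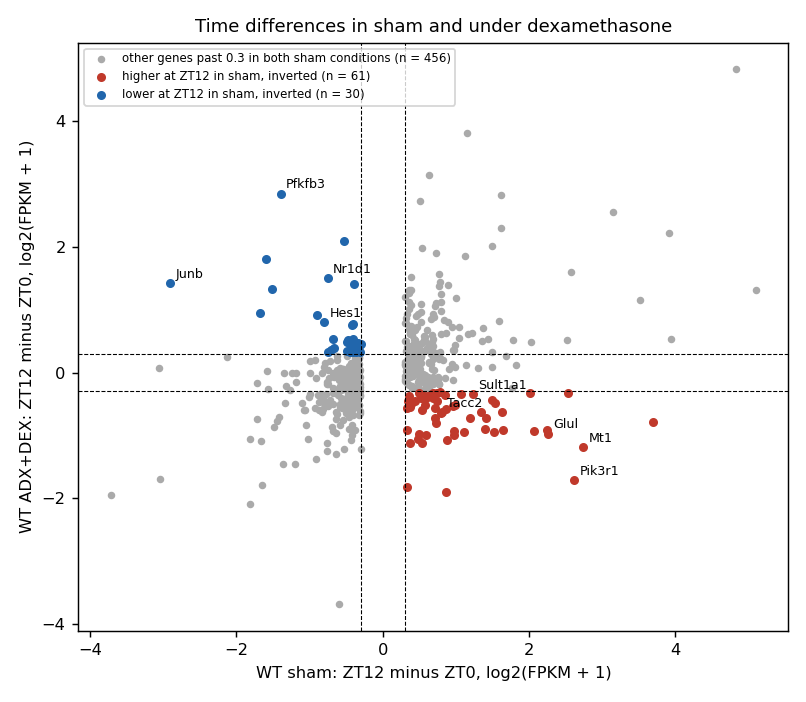
Time difference (ZT12 mean minus ZT0 mean, log2(FPKM + 1)) in WT sham on the horizontal axis and in WT ADX+DEX on the vertical axis, 1 point per gene. The 61 evening-high and 30 morning-high genes lie in opposite corners because the rule placed them there.

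Replicates separated by time in part of the set. The 4 ZT12 libraries were above the 4 ZT0 libraries for 42 of the 61 evening-high genes in WT sham, where 12.7% of all genes did this. For RE-RE sham the count was 34, beside 6.21% of all genes. Under dexamethasone 52 of the 61 had every ZT12 library below every ZT0 library, which held for 12.3% of all genes. For the 30 morning-high genes the counts were 17 in WT sham (10.6% of all genes), 11 in RE-RE sham (5.76%) and 16 under dexamethasone (11.9%). As the rule used these contrasts, nothing is read from the shares. No overlap in any of the 3 conditions was found for 32 genes, 24 evening-high and 8 morning-high. Glul, Pik3r1, Xdh, Slc7a8, Sult1a1 and Adh1, with Junb, Hes1, Cxcl12 and Cpeb1, are among them. The share of all genes was not computed for this joint criterion, and nothing is read from the count.

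Membership near the threshold was narrow. Just inside it were Plau, a protease that activates plasminogen, at 0.33, 0.3 and -0.91 in WT sham, RE-RE sham and WT ADX+DEX, and Ccn1, a matrix-associated signalling protein, at -0.4, -0.3 and 0.53. Just outside were Tek, an endothelial receptor, at -0.29, -0.33 and 0.4, and Tle4, a co-repressor, at 0.52, 0.46 and -0.29. Leaving out any 1 of the 24 libraries that the rule used kept 44 of the 91 genes throughout. Without the libraries that stand apart the rule gave 80 genes, and 69 of the 91 were among them. Foxo1, Mt2, Lcn2, Slc8a1 and Irs2 were not.

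In the conditions outside the rule, time differences were under 0.3 in size for 50 of the 91 genes in WT ADX, 66 in RE-RE ADX and 56 in WT ADX+ADR. For the 456 other genes of the sham set these counts were 254, 306 and 186. Among the 61 evening-high genes, 21 were at least 0.3 higher and 4 at least 0.3 lower at ZT12 in WT ADX, where 3.61% and 5.48% of all genes were. In RE-RE ADX the counts were 15 and 4 (1.48% and 1.76% of all genes), and in WT ADX+ADR 10 and 7 (4.50% and 5.71%). Of the 30 morning-high genes, 14 were lower and 2 higher in WT ADX, 5 were lower and 1 higher in RE-RE ADX, and 12 were lower and 6 higher in WT ADX+ADR. The median difference of the evening-high genes was 0.09, 0.15 and 0.11 in these 3 conditions, and that of the morning-high genes was -0.26, -0.21 and -0.22. Over all genes it lay between 0 and 0.01. Every ZT12 library was above every ZT0 library for 13 evening-high genes and below for 1 in WT ADX (9.65% and 7.75% of all genes), for 6 and 0 in RE-RE ADX (5.83% and 3.28%), and for 12 and 11 in WT ADX+ADR (9.39% and 8.25%). Of the morning-high genes, 1 was above and 3 below in WT ADX, 0 and 3 in RE-RE ADX, and 6 and 6 in WT ADX+ADR.

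**Figure D2:**
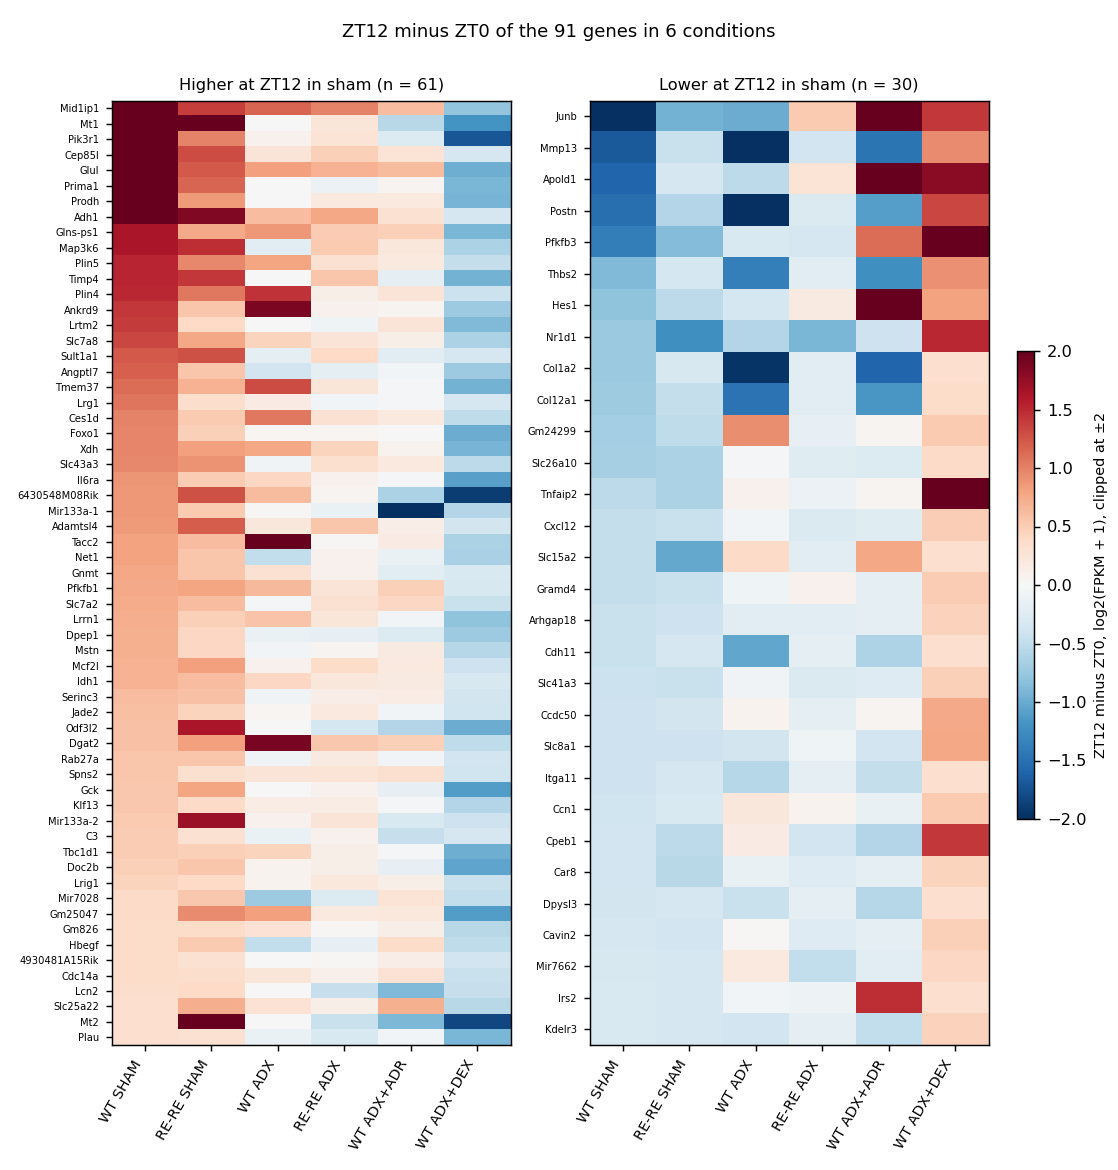
Time difference (ZT12 minus ZT0, log2(FPKM + 1)) of each of the 91 genes in the 6 conditions, 1 gene per line. The sham and dexamethasone columns have opposite signs by the rule, and the WT ADX, RE-RE ADX and WT ADX+ADR columns are mostly pale, with class medians between -0.26 and 0.15.

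The time difference under dexamethasone came with a large difference in level at ZT0. Relative to WT sham at the same time, evening-high genes were a median of 1.87 higher at ZT0 under dexamethasone, with 59 of 61 at least 0.3 higher, which held for 18.2% of all genes. At ZT12 the median was 0.25, with 27 at least 0.3 higher and 11 at least 0.3 lower (13.4% and 16.3% of all genes). The dexamethasone group at ZT0 had the highest of the 12 group means for 53 of the 61, as it did for 18.8% of all genes. Even at ZT12, the lower of the pair, dexamethasone levels were a median of 1.21 above WT sham at ZT0. For the morning-high genes the median dexamethasone minus sham difference was -1.32 at ZT0, with 24 of 30 at least 0.3 lower (19.8% of all genes), and 0.25 at ZT12. These differences use libraries of the rule and are given without a test.

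**Figure D3:**
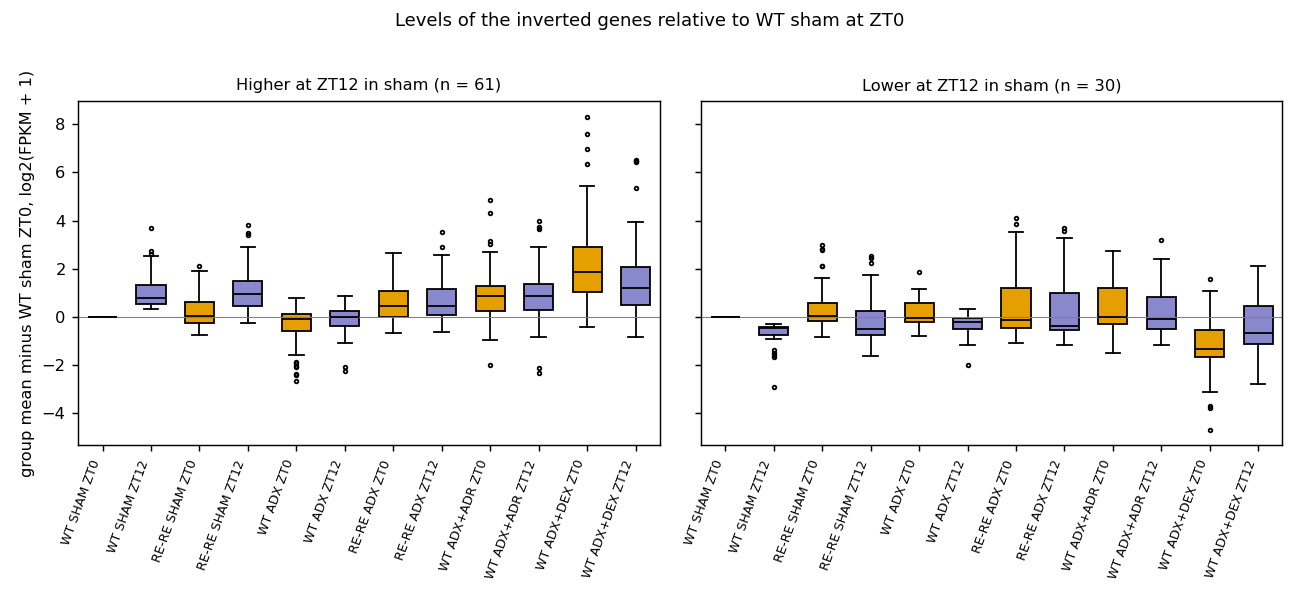
Group mean minus the WT sham ZT0 mean (log2(FPKM + 1)) for the evening-high and morning-high genes in each of the 12 groups. Boxes give the median and quartiles over genes and whiskers reach 1.5 times the interquartile range. The dexamethasone boxes at ZT0 lie farthest from 0, with medians of 1.87 and -1.32.

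Some known glucocorticoid receptor targets were part of the set. Of 42 measured genes on a list of such targets, 23 were in the sham set of 547 and 8 were among the 91, beside 16.6% of that sham set. Most targets on the list were thus not members. The median time difference over the list was 0.57 in WT sham, 0.56 in RE-RE sham and -0.01 in WT ADX+DEX. Foxo1, Glul, Lcn2, Mt1, Mt2, Pik3r1 and Sult1a1 were evening-high, and Irs2 was morning-high.

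Glul (chromosome 1, 153899944 to 153909723) encodes glutamine synthetase, which makes glutamine from glutamate and ammonia. Glul was at 21.2, 25.4, 16.2 and 27.6 FPKM at ZT0 and at 129, 89.8, 111 and 113 FPKM at ZT12 in WT sham. In RE-RE sham it was at 42.9, 36.1, 38 and 49 FPKM at ZT0 and at 65.7, 113, 119 and 104 FPKM at ZT12. Under dexamethasone the order was the other way round, with 131, 179, 157 and 193 FPKM at ZT0 and 83.8, 77.7, 84.7 and 86.6 FPKM at ZT12. The times did not overlap in any of these 3 conditions. WT ADX had 17.1, 16.6 and 21.5 FPKM at ZT0 and 34.9, 40.8, 39.6 and 21.3 FPKM at ZT12, and the highest ZT0 library just exceeded the lowest ZT12 library. WT ADX+ADR had 49.6, 59.6, 54.8 and 50.1 FPKM at ZT0 and 73.8, 80.8, 90.2 and 91.7 FPKM at ZT12. All WT ADX libraries at ZT12 were thus below all WT sham libraries at that time, and the adrenaline times did not overlap. The limma difference was 0.82 ± 0.23 (SE) in WT ADX (adjusted p = 0.0274) and 0.64 ± 0.21 in WT ADX+ADR (adjusted p = 0.0483). In RE-RE ADX it was 0.69 ± 0.21 and did not pass (adjusted p = 0.137). The WT ADX call was lost in 6 of 14 alternatives, 5 of them leaving out 1 library (0.73 to 0.8), and the WT ADX+ADR call in 10 of 15, 7 of them leaving out 1 library (0.6 to 0.69). Glns-ps1, a processed pseudogene of Glul on chromosome 11, followed the same pattern, at 1.64, 0.75 and -0.92 in the rule conditions, but reads shared with Glul cannot be assigned with certainty.

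Sult1a1 (chromosome 7, 126672865 to 126676432) encodes a sulfotransferase of phenolic compounds. In WT sham, Sult1a1 was at 7.15, 6.55, 6.8 and 6.41 FPKM at ZT0 and at 18.1, 14.5, 17.1 and 19 FPKM at ZT12. RE-RE sham gave 6.77, 7.41, 4.88 and 6.63 FPKM at ZT0 and 15.4, 17.1, 17 and 17.4 FPKM at ZT12. Dexamethasone gave 16.7, 17.4, 20.2 and 22.2 FPKM at ZT0 and 15.9, 15.3, 14.3 and 13.9 FPKM at ZT12. Both dexamethasone times thus lay in or near the range of sham ZT12, and far above sham ZT0. The time difference missed the test in WT ADX (-0.19 ± 0.12, adjusted p = 0.322), RE-RE ADX (0.4 ± 0.11, adjusted p = 0.0861) and WT ADX+ADR (-0.22 ± 0.11, adjusted p = 0.194).

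Foxo1 (chromosome 3, 52268336 to 52353221) encodes a transcription factor of the fasting and atrophy response, and Pik3r1 (chromosome 13, 101680563 to 101768217) a regulatory subunit of phosphoinositide 3-kinase, which relays insulin signals. Foxo1 was at 1.7 to 2.26 FPKM at ZT0 and 3.8 to 5.94 FPKM at ZT12 in WT sham, against 7.31, 9.99, 10.5 and 15.6 FPKM at ZT0 and 4.71, 4.71, 4.76 and 4.72 FPKM at ZT12 under dexamethasone. In RE-RE sham the Foxo1 times overlapped, with 3.54, 2.14, 4.06 and 3.47 FPKM at ZT0 and 3.22, 6.74, 5.01 and 5.2 FPKM at ZT12. Adrenalectomised mice had flat Foxo1 levels: 2.54 to 2.57 FPKM at ZT0 and 2.48 to 3.02 FPKM at ZT12 in WT ADX. Differences were 0.04 ± 0.05 in WT ADX (limma adjusted p = 0.65), 0.04 ± 0.05 in RE-RE ADX (adjusted p = 0.746) and 0 ± 0.05 in WT ADX+ADR (adjusted p = 0.983). Pik3r1 was listed at 0 in all 4 WT sham libraries at ZT0, and was at 7.58, 2.74, 5.57 and 5.74 FPKM at ZT12. Dexamethasone gave 36.5, 41.6, 42 and 50.8 FPKM at ZT0 and 12.4, 12.1, 12.6 and 11.9 FPKM at ZT12. In WT ADX, 6 of the 7 libraries were listed at 0 for Pik3r1. Its levels under dexamethasone were thus above those of each sham library at both times.

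Metal-binding and secreted targets stood out by level. Mt1 and Mt2 encode metallothioneins, small proteins that bind zinc and copper, and their near-identical sequences can share reads. Mt1 (chromosome 8, 94179082 to 94180327) was at 0 to 0.636 FPKM at ZT0 and 3.58 to 10.2 FPKM at ZT12 in WT sham. The RE-RE sham times of Mt1 overlapped, at 0 to 9.58 FPKM at ZT0 and 9.12 to 21.5 FPKM at ZT12. Dexamethasone gave 209, 213, 212 and 249 FPKM at ZT0 and 92.8, 91.7, 98.8 and 100 FPKM at ZT12. In WT ADX+ADR Mt1 was at 20.7 to 21.7 FPKM at ZT0 and 12.3 to 16.8 FPKM at ZT12, and in WT ADX all 7 libraries were listed at 0. Lcn2, which encodes lipocalin-2, a secreted protein that binds iron-carrying siderophores, was at 101, 110, 129 and 162 FPKM at ZT0 and at 91, 92.1, 90.8 and 84.7 FPKM at ZT12 under dexamethasone. No other library exceeded 3.81 FPKM for Lcn2, and its sham difference rests on values of at most 1.12 FPKM. Neither Lcn2 nor Mt2 was kept by the rule without the libraries that stand apart.

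Mstn (chromosome 1, 53061640 to 53068079) encodes myostatin, an inhibitor of muscle growth. Under dexamethasone Mstn was at 54.5, 60.3, 57.7 and 76.4 FPKM at ZT0 and 39.7, 37, 39.8 and 49.8 FPKM at ZT12. WT sham had 16.9, 9.94, 6.5 and 11.3 FPKM at ZT0 and 19.9, 12.1, 22.2 and 19.6 FPKM at ZT12, with overlap between the times. RE-RE sham overlapped too, at 13.7 to 20.4 FPKM at ZT0 and 16.4 to 31.4 FPKM at ZT12. Every dexamethasone library thus exceeded every sham library. Time differences outside the rule lay between -0.05 and 0.18 and missed the test.

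**Figure D4:**
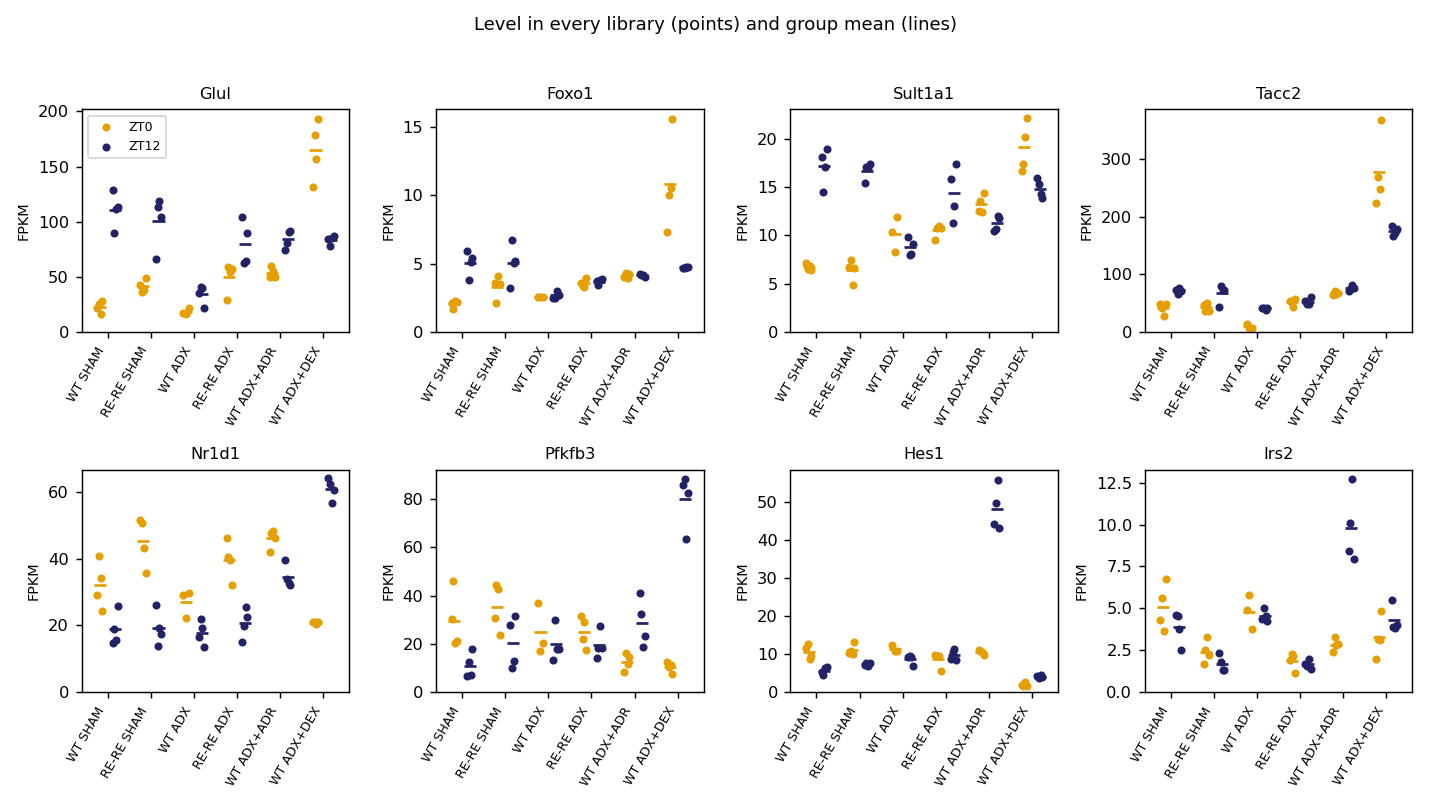
FPKM of each library for Glul, Foxo1, Sult1a1, Tacc2, Nr1d1, Pfkfb3, Hes1 and Irs2 at ZT0 and ZT12 in the 6 conditions, with points for libraries and lines for group means. Glul at ZT0 runs from 16.2 to 27.6 FPKM in WT sham and from 131 to 193 FPKM under dexamethasone.

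Some evening-high genes act in lipid and fuel handling. This grouping was made after the members were known. Of 31 measured genes on a fatty acid and lipid droplet list, only Dgat2, Plin4 and Plin5 were among the 91. The median time difference over that list was 0.06 in WT sham, 0.14 in RE-RE sham and -0.07 in WT ADX+DEX. Dgat2 catalyses the last step of triglyceride synthesis, and the perilipins Plin4 and Plin5 coat lipid droplets. Dgat2 (chromosome 7, 99153658 to 99182719) was at 39.5, 45.4, 40.5 and 62.4 FPKM at ZT0 and at 32.9, 31.1, 32.3 and 32.5 FPKM at ZT12 under dexamethasone. In WT sham Dgat2 overlapped between times, with 16.2, 14.5, 19.4 and 30.2 FPKM at ZT0 and 36, 40.7, 24.1 and 20.7 FPKM at ZT12. In RE-RE sham it did not, with 8.98, 18.2, 18.9 and 9.4 FPKM at ZT0 and 25.9, 20.5, 30.8 and 20.3 FPKM at ZT12. In WT ADX the gene rose from 0.61, 2.59 and 4.67 FPKM at ZT0 to 12.4, 9.71, 11.9 and 9.83 FPKM at ZT12, a limma difference of 1.9 ± 0.27 (adjusted p = 0.000413). That call was lost when only the WT ADX libraries were modelled. Adipocyte markers, 9 genes in all, summed to 63.8 to 141 FPKM at ZT0 and 51 to 260 FPKM at ZT12 under dexamethasone, against 978 to 1350 and 1140 to 1690 FPKM in WT sham. Most of that sum was Car3, a carbonic anhydrase that muscle also expresses, at 10.7 to 79 and 5.71 to 189 FPKM under dexamethasone and 917 to 1270 and 1090 to 1610 FPKM in WT sham. The adipocyte genes Adipoq (1.89 to 3.02 FPKM at ZT0 under dexamethasone, 0.677 to 1.96 FPKM in WT sham) and Plin1 (0.837 to 1.17 and 0.595 to 1.3 FPKM) were low in both, and none of the 9 markers was at 0 in these libraries. The part of these markers in the lipid genes' differences was not tested.

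Tacc2 (chromosome 7, 130577438 to 130764785) encodes a coiled-coil protein of centrosomes and microtubules. Its WT sham values were 49, 41.9, 27.7 and 47.7 FPKM at ZT0 and 73.3, 66.4, 76.6 and 71.5 FPKM at ZT12. The RE-RE sham times overlapped, at 35.9 to 49.8 FPKM at ZT0 and 42.9 to 79.2 FPKM at ZT12. Dexamethasone gave 223, 269, 248 and 368 FPKM at ZT0 and 184, 166, 172 and 179 FPKM at ZT12, above each library of the other 5 conditions. WT ADX gave the lowest values, with 14.1, 7.2 and 7.46 FPKM at ZT0, and 42, 41.9, 37.1 and 41.5 FPKM at ZT12. The WT ADX rise of 2.03 ± 0.15 had the smallest adjusted p of the 91 genes there (limma, 1.21e-07). In RE-RE ADX the Tacc2 difference was 0.03 ± 0.13 and in WT ADX+ADR 0.17 ± 0.13, and neither passed (adjusted p = 0.946 and 0.435). These time effects themselves differed from that of WT ADX, by -2 ± 0.2 for RE-RE ADX (adjusted p = 3.51e-05) and by -1.87 ± 0.2 for WT ADX+ADR (adjusted p = 5.36e-06).

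Other evening-high members are metabolic enzymes. Xdh (chromosome 17, 73883895 to 73950196), xanthine dehydrogenase of purine breakdown, was at 23.4, 26.8, 29.4 and 31.1 FPKM at ZT0 and 15, 14.3, 13.8 and 13.1 FPKM at ZT12 under dexamethasone. WT sham had 8.59, 8.35, 5.67 and 6.74 FPKM at ZT0 and 20.7, 10.1, 14.5 and 17.5 FPKM at ZT12 for Xdh, with no overlap. Adh1, an alcohol dehydrogenase whose transcript is rhythmic in several tissues, had the smaller dexamethasone difference of -0.33 beside sham differences of 2.01 and 1.85. Its dexamethasone values were 9.61, 11.2, 11.1 and 12.6 FPKM at ZT0 and 8.26, 8.64, 8.39 and 9.16 FPKM at ZT12, between WT sham ZT0 (3.36 to 5.17 FPKM) and WT sham ZT12 (18.6 to 22 FPKM). Adh1 was thus unlike Glul and Xdh in that its dexamethasone values stayed below WT sham ZT12. Ces1d, a carboxylesterase with lipase activity, rose by 1.05 ± 0.2 in WT ADX (limma adjusted p = 0.00297), and Pfkfb1, which sets fructose 2,6-bisphosphate levels, rose by 0.65 ± 0.11 (adjusted p = 0.00138). Tbc1d1, a Rab GTPase-activating protein of glucose transport, was at 48.6, 51.7, 45.5 and 64.9 FPKM at ZT0 and 25.6, 24.1, 29.5 and 25.9 FPKM at ZT12 under dexamethasone. In WT sham its times overlapped, because 1 ZT12 library was at 14.8 FPKM and the others at 23.8 to 34.1 FPKM.

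Solute carriers were found in both classes, with Slc7a8, Slc7a2, Slc43a3 and Slc25a22 evening-high and Slc41a3, Slc8a1, Slc26a10 and Slc15a2 morning-high. Slc7a8 (chromosome 14, 54722209 to 54781946), a neutral amino acid transporter, was at 1.63, 1.27, 1.25 and 1.78 FPKM at ZT0 and 5.12, 5.07, 5.41 and 5.4 FPKM at ZT12 in WT sham. Dexamethasone gave 2.88, 3.6, 3.65 and 5.11 FPKM at ZT0 and 1.92, 1.87, 2.25 and 2.25 FPKM at ZT12, so here the dexamethasone range lay within that of sham. In WT ADX it rose by 0.44 ± 0.11 (limma adjusted p = 0.0134), a call that was lost in 2 of 14 alternatives. Slc7a2, a cationic amino acid transporter, had differences of 0.74, 0.62 and -0.45 in the rule conditions, and rose by 0.42 ± 0.1 in WT ADX+ADR (adjusted p = 0.0066). Slc43a3, a purine nucleobase transporter, had rule differences of 0.96, 0.9 and -0.53. Net1, an exchange factor for the GTPase RhoA, had 0.8, 0.56 and -0.65. Of the 91 genes 83 are protein coding, and the values of the miRNA, snRNA and snoRNA genes among the others, such as Mir133a-1, are not read as levels of mature short RNAs.

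The only core clock gene in the set was Nr1d1 (chromosome 11, 98767932 to 98775333), which encodes REV-ERB alpha, a repressor of Arntl. Of 21 core clock genes, 15 were in the sham set of 547. Nr1d1 was at 29, 40.9, 34.2 and 24.4 FPKM at ZT0 and 14.7, 18.8, 15.7 and 25.9 FPKM at ZT12 in WT sham, with 1 library of overlap. RE-RE sham had 51.5, 50.7, 43.1 and 35.8 FPKM at ZT0 and 26.1, 13.8, 19.1 and 17.5 FPKM at ZT12. Dexamethasone gave 21, 21.1, 20.3 and 21 FPKM at ZT0 and 64.2, 62.5, 56.7 and 60.6 FPKM at ZT12. The ZT0 values were below each WT sham ZT0 library, and the ZT12 values were above every other library of the series. Nr1d1 fell by 0.59 ± 0.16 from ZT0 to ZT12 in WT ADX (limma adjusted p = 0.024) and by 0.92 ± 0.15 in RE-RE ADX (adjusted p = 0.00515). In WT ADX+ADR the difference was -0.41 ± 0.15 (adjusted p = 0.0741). It was the 1 gene of the set called in RE-RE ADX, where 0.901% of all tested genes were (0.755% up and 0.146% down). The WT ADX call was lost in 5 of 14 alternatives, 4 of them leaving out 1 library (-0.48 to -0.57). The RE-RE ADX call was lost in 2 of 16, when only the groups compared were modelled and without the libraries that stand apart.

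Pfkfb3 (chromosome 2, 11471433 to 11554077), a glycolytic regulator that makes fructose 2,6-bisphosphate, had the largest dexamethasone difference among the morning-high genes, at 2.84. It was at 12.4, 10.5, 11.3 and 7.54 FPKM at ZT0 and 86.1, 88.2, 63.4 and 82.6 FPKM at ZT12 there. In WT sham Pfkfb3 was at 30.5, 46, 20.3 and 21.2 FPKM at ZT0 and 6.58, 12.3, 6.87 and 17.8 FPKM at ZT12. In RE-RE sham the times overlapped, with 30.6, 44.6, 42.8 and 23.6 FPKM at ZT0 and 27.7, 9.79, 13 and 31.5 FPKM at ZT12. Under adrenaline Pfkfb3 rose from 8.16, 16, 11.6 and 14.6 FPKM at ZT0 to 41.2, 32.4, 18.7 and 23.1 FPKM at ZT12, by 1.11 ± 0.29 (limma adjusted p = 0.0129). Pfkfb3 thus had its higher values at ZT12 in both injected conditions. Its differences in WT ADX and RE-RE ADX, -0.3 ± 0.31 and -0.34 ± 0.29, missed the test (adjusted p = 0.581 and 0.664).

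Hes1, Junb, Irs2 and Apold1, grouped here after the members were known, were higher at ZT12 in both injected conditions. Hes1 (chromosome 16, 30064384 to 30067796), a transcriptional repressor downstream of Notch, was at 11.5, 12.5, 8.6 and 9.4 FPKM at ZT0 and 5.19, 4.35, 6.32 and 6.53 FPKM at ZT12 in WT sham. Dexamethasone gave 1.86, 1.53, 2.59 and 1.72 FPKM at ZT0 and 4.24, 3.64, 4.42 and 3.91 FPKM at ZT12, all below WT sham ZT0. Adrenaline gave 11, 10.9, 10.4 and 9.68 FPKM at ZT0 and 44.1, 49.7, 55.7 and 43.1 FPKM at ZT12. The sign of the Hes1 difference was thus the same under both injections, but the levels at ZT12 differed widely. With adrenaline the rise was 2.09 ± 0.13 (limma adjusted p = 2.85e-09), and the time effect exceeded that of WT ADX by 2.43 ± 0.2 (adjusted p = 2.23e-07).

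Junb (chromosome 8, 84974484 to 84978718), a subunit of the AP-1 transcription factor, was at 13.2, 17.7, 8.37 and 10.2 FPKM at ZT0 and 0, 0.568, 0.289 and 3.47 FPKM at ZT12 in WT sham. Under dexamethasone its 4 ZT0 libraries were all listed at 0, and those at ZT12 were at 1.6, 2.44, 2.15 and 0.839 FPKM. With adrenaline it rose from 14, 17.6, 15.3 and 14.1 FPKM at ZT0 to 107, 125, 140 and 105 FPKM at ZT12, by 2.88 ± 0.55 (limma adjusted p = 0.00121). Junb under dexamethasone stayed below each adrenaline library at both times. The Junb call was lost with an offset of 0.01.

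Irs2 (chromosome 8, 10984681 to 11008458), an insulin receptor substrate, was a member by narrow margins of -0.31, -0.34 and 0.33. Its WT sham times overlapped, with 4.31, 5.6, 3.63 and 6.74 FPKM at ZT0 and 4.61, 4.54, 3.78 and 2.52 FPKM at ZT12. Dexamethasone gave 1.99, 3.19, 3.13 and 4.83 FPKM at ZT0 and 5.48, 3.86, 3.81 and 4.03 FPKM at ZT12, also with overlap. Under adrenaline Irs2 rose from 2.4, 3.29, 2.8 and 2.84 FPKM to 8.41, 10.1, 12.7 and 7.93 FPKM, by 1.48 ± 0.14 (limma adjusted p = 3.32e-07). The adrenaline times were fully apart, unlike those under dexamethasone. Apold1, an immediate early gene of endothelial cells, had WT sham values of 3.33, 4.15, 1.78 and 3.53 FPKM at ZT0 and 0.537, 0.352, 0.491 and 0.108 FPKM at ZT12. In RE-RE sham Apold1 was at 1.58 to 2.43 FPKM at ZT0 and 0.889 to 2.11 FPKM at ZT12, with overlap. It was at 0.534, 1.03, 0.0551 and 1.37 FPKM at ZT0 and 4.86, 7.29, 5.38 and 2.81 FPKM at ZT12 under dexamethasone. With adrenaline Apold1 rose by 2.42 ± 0.3 (adjusted p = 1.22e-05), reaching 19.3 to 22.1 FPKM at ZT12. Genes of an immediate early and stress list, of which Junb is a member, summed to 420 to 577 FPKM at ZT12 under adrenaline and 170 to 261 FPKM at ZT0. Under dexamethasone the sums were 166 to 207 FPKM at ZT0 and 169 to 226 FPKM at ZT12, and in WT sham 44.9 to 134 and 35.2 to 50.9 FPKM.

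Several morning-high genes were low throughout the dexamethasone condition, and had the other sign within that lower range. Cpeb1 (chromosome 7, 81347026 to 81455465), which binds cytoplasmic polyadenylation elements in mRNA, was at 21.3, 20.7, 20.2 and 17.1 FPKM at ZT0 and 13.3, 15.2, 14.4 and 16.7 FPKM at ZT12 in WT sham. Dexamethasone gave 0.846, 0.417, 1.01 and 0 FPKM at ZT0 and 3.46, 3.71, 1.86 and 3.42 FPKM at ZT12. Each dexamethasone library was far below each sham library. Cxcl12 (chromosome 6, 117168535 to 117181367), a chemokine, was at 17.6, 18.2, 17.3 and 18.9 FPKM at ZT0 and 14.1, 11.5, 13.4 and 11.7 FPKM at ZT12 in WT sham, against 6.87, 7.26, 5.86 and 5.46 FPKM and 8.98, 9.48, 8.99 and 9.83 FPKM under dexamethasone. Slc41a3, a magnesium transporter, had 42.2 to 48.3 FPKM at ZT0 and 29.3 to 37.5 FPKM at ZT12 in WT sham, and 14.6 to 18.9 FPKM and 22.6 to 27.2 FPKM under dexamethasone. For Cpeb1, Cxcl12 and Slc41a3 the highest dexamethasone value thus lay under the lowest WT sham value. Nr1d1, Gramd4 and Slc8a1 did not share this, and Slc8a1, a sodium-calcium exchanger, was at 4.76 to 6.08 FPKM at ZT12 under dexamethasone, above its WT sham range of 1.4 to 3.1 FPKM. Endothelial markers were also low under dexamethasone, with sums over 11 genes of 106 to 110 FPKM at ZT0 and 96.6 to 117 FPKM at ZT12, against 172 to 191 and 146 to 158 FPKM in WT sham. In bulk tissue, fewer cells of a type and less RNA per cell cannot be told apart, and the part of these markers in the differences was not tested.

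Matrix genes formed the least firm group of morning-high genes. Postn, Col1a2, Mmp13, Col12a1, Thbs2, Cdh11 and Itga11, chosen here after their values were seen, encode matrix proteins, a collagenase, a cadherin and an integrin. Col1a2, a chain of type I collagen, was listed at 0 in every dexamethasone library but 1, a ZT12 library at 1.48 FPKM, so its dexamethasone difference of 0.33 rests on that library. Mmp13 under dexamethasone had every ZT0 library listed at 0, and 2.76, 0, 2.63 and 0 FPKM in the ZT12 libraries. WT sham values of Col1a2 were 0, 18.4, 29.3 and 8.71 FPKM at ZT0 and 4.83, 0, 7.32 and 14.2 FPKM at ZT12, with overlap. The 14 fibroblast markers that are not members summed to 156 to 201 FPKM at ZT0 and 159 to 215 FPKM at ZT12 under dexamethasone, and to 225 to 443 and 216 to 305 FPKM in WT sham. In RE-RE sham the sums were 411 to 828 and 482 to 541 FPKM. These sums overlapped between times in each of those conditions, and their part in the matrix genes' differences was not tested.

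In the conditions outside the rule, 85 of the 91 genes passed the filter of 1 FPKM in at least 3 of the 23 libraries, 56 evening-high and 29 morning-high. A gene that passes only through the group in which it is high has to differ between groups, so the counts below are a description of these genes. In WT ADX, 12 evening-high genes rose from ZT0 to ZT12 and 0 fell, and 4 morning-high genes fell and 0 rose (limma, Benjamini-Hochberg adjusted p under 0.05), where 7.29% of all 11652 tested genes rose and 3.67% fell (11.0% in either direction). At an unadjusted p under 0.05 there were 21 evening-high and 14 morning-high genes, beside 27.5% of all tested genes. The called evening-high genes included Tacc2, Dgat2, Pfkfb1, Ces1d, Slc7a8 and Glul, and the falls included Nr1d1. With only the WT ADX libraries modelled, 2 genes were called, Tacc2 and Ces1d, beside 0.369% of all tested genes, and without WT ADX ZT0 replicate 2 the count was 9. The WT ADX signs were thus those of sham for every called gene, and not those of dexamethasone.

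In WT ADX+ADR 16 genes were called (14.1% of all tested genes, 7.11% up and 7.0% down). Of the evening-high genes 5 rose and 2 fell, and of the morning-high genes 6 rose and 3 fell. The 6 that rose, Hes1, Irs2, Apold1, Junb, Pfkfb3 and Slc15a2, had the dexamethasone sign, and the 3 that fell, Cpeb1, Kdelr3 and Dpysl3, had the sham sign. The dexamethasone sign of Slc15a2 rests on low values that overlapped, at 0 to 0.747 FPKM at ZT0 and 0 to 1.63 FPKM at ZT12. Cpeb1 fell by 0.59 ± 0.14 (limma adjusted p = 0.00677). Among evening-high genes Mir133a-1 fell by 2.9 ± 0.37 (limma adjusted p = 1.67e-05) and Lcn2 by 0.89 ± 0.26 (adjusted p = 0.0262). The Lcn2 call was lost in 7 of 14 alternatives. Its values under adrenaline were 3.73 to 3.81 FPKM at ZT0 and 1.56 to 1.6 FPKM at ZT12, and every WT ADX library was listed at 0. Mt2 was similarly even under adrenaline, at 27.4 to 28.8 FPKM at ZT0. Such closeness between mice may come from the processing, which was not tested. Slc25a22, a mitochondrial glutamate carrier, rose by 0.71 ± 0.14 (adjusted p = 0.00153). With only the WT ADX+ADR libraries modelled, 27 genes were called, beside 9.88% of all tested genes. The WT ADX+DEX and WT ADX+ADR conditions share no libraries.

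The difference between the time effects of WT ADX+ADR and WT ADX was called for 9 genes (4.86% of all tested genes, 2.33% with a positive and 2.52% with a negative difference). It was negative for Tacc2, Mir133a-1, Tmem37, Dgat2 and Cpeb1 and positive for Hes1, Irs2, Apold1 and Junb. Dgat2 differed by -1.41 ± 0.37 (limma adjusted p = 0.0323), and this call was lost in 8 of 22 alternatives. Apold1 differed by 2.95 ± 0.44 (adjusted p = 0.000331) and Irs2 by 1.53 ± 0.2 (adjusted p = 8.84e-05). Between RE-RE ADX and WT ADX the time effect differed for Tacc2 alone, negatively (0.0515% of all tested genes, 0.0172% positively and 0.0343% negatively), and 11 evening-high and 4 morning-high genes had an unadjusted p under 0.05, beside 9.32% of all tested genes. Genes called in WT ADX and not in RE-RE ADX, such as Glul with a difference of -0.13 ± 0.31 (adjusted p = 0.94), are therefore not shown to differ between the genotypes.

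**Figure D5:**
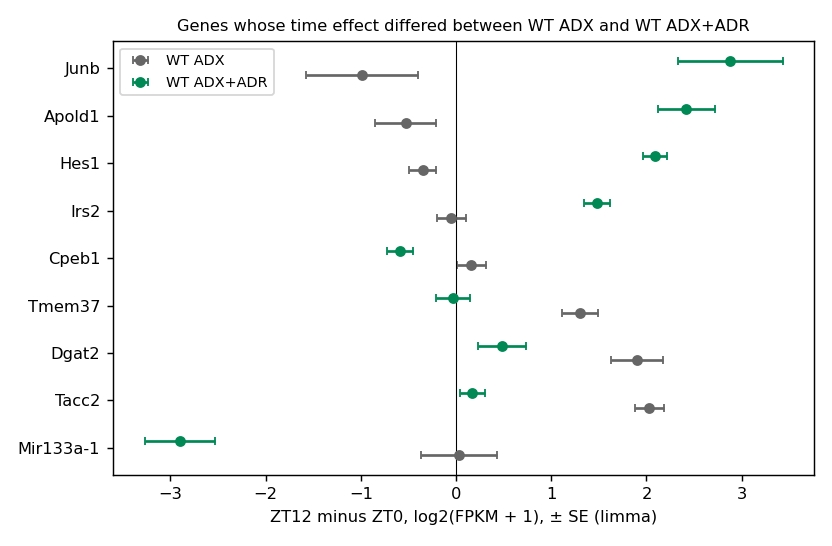
Time effect (ZT12 minus ZT0, log2(FPKM + 1), ± SE from limma) in WT ADX and WT ADX+ADR for the 9 genes whose time effects differed between the conditions. Hes1 moves from -0.35 to 2.09 and Tacc2 from 2.03 to 0.17.

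The levels of these genes also differed between WT ADX+ADR and WT ADX. At ZT0, 62 of the 85 genes were called, and at ZT12 68 were, beside 53.8% and 55.1% of all tested genes, so the shares are to be read against a large background. Of member values, 26.7% at ZT0 and 19.8% at ZT12 were listed at 0 in WT ADX, against 2.75% and 3.3% in WT ADX+ADR. A run or processing difference between the conditions was not tested, so these level differences are not assigned to adrenaline. In this comparison, rose and fell mean higher and lower in WT ADX+ADR than in WT ADX. Evening-high genes were mostly higher in WT ADX+ADR, with 42 up and 4 down of 56 at ZT0 and 40 up and 4 down at ZT12. Over all tested genes 27.5% and 28.6% were called higher, and 26.3% and 26.5% lower. Median changes were 1.25 and 0.99, beside 0.01 over all genes at both times. Glul rose by 1.49 ± 0.23 at ZT0 (limma adjusted p = 2.62e-05) and 1.31 ± 0.21 at ZT12 (adjusted p = 4.12e-05). Foxo1 rose by 0.53 ± 0.05 (adjusted p = 1.74e-07) and 0.49 ± 0.05 (adjusted p = 1.29e-07), and Xdh by 1.79 ± 0.28 (adjusted p = 3.63e-05) and 1.09 ± 0.26 (adjusted p = 0.00161). Sult1a1 was higher by 0.36 ± 0.12 (adjusted p = 0.013) and 0.33 ± 0.11 (adjusted p = 0.0136), but the ZT0 call was lost in 2 of 15 alternatives (0.24 without WT ADX ZT0 replicate 2) and the ZT12 call in 1 of 16. Spns2, a sphingosine 1-phosphate transporter, moved the other way and fell by 0.54 ± 0.07 at ZT0 (adjusted p = 6.69e-06). Pik3r1 and Mt1 were listed at 0 in most or all WT ADX libraries, so no fold is given for them. When genes with any value at 0 were left out, 34 and 39 genes were called. Fewer than 85 members were tested then, so these counts are not a loss of calls from 62 and 68.

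Morning-high genes were split in the same comparison, with 6 up and 10 down of 29 at ZT0 and 13 up and 11 down at ZT12. Nr1d1 was higher with adrenaline at both times, by 0.76 ± 0.16 (limma adjusted p = 0.000602) and 0.94 ± 0.15 (adjusted p = 3.24e-05). Hes1 was not called at ZT0, with -0.09 ± 0.14 (adjusted p = 0.614), and rose by 2.34 ± 0.13 at ZT12 (adjusted p = 1.15e-10). Irs2 fell by 0.59 ± 0.15 at ZT0 (adjusted p = 0.00271) and rose by 0.94 ± 0.14 at ZT12 (adjusted p = 1.55e-05). Cxcl12 fell by 0.37 ± 0.11 at ZT0 (adjusted p = 0.0103) and by 0.55 ± 0.1 at ZT12 (adjusted p = 0.000208), and the ZT0 call was lost without WT ADX ZT0 replicate 2, at -0.28. Spread within the groups was unequal, and the median SD over evening-high genes was 0.08 in WT ADX+ADR at ZT0 and in WT ADX+DEX at ZT12, against 0.15 to 0.28 in the other groups.

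Genes of the same pathways were counted from the lists, with the member genes left in. The glucocorticoid receptor targets include Foxo1, Glul, Irs2, Lcn2, Mt1, Mt2, Pik3r1 and Sult1a1, and the core clock genes include Nr1d1. Irs2, Junb and Mt1 are among the cyclic AMP and adrenergic response genes, and Junb among the immediate early and stress genes. The list counts are therefore not separate from the member results above. Of 40 tested glucocorticoid receptor targets, 9 rose and 6 fell with time in WT ADX, 1 rose and 0 fell in RE-RE ADX, and 15 rose and 3 fell in WT ADX+ADR, where 11.0%, 0.901% and 14.1% of all tested genes were called in either direction. Between WT ADX+ADR and WT ADX, 26 of them were higher and 8 lower at ZT0, and 30 higher and 2 lower at ZT12, with medians of 0.62 and 1.2, beside 53.8% and 55.1% of all tested genes called. Of 21 core clock genes, 10 rose and 5 fell in WT ADX, 9 rose and 3 fell in RE-RE ADX, and 14 rose and 4 fell in WT ADX+ADR. Of 23 cyclic AMP and adrenergic response genes, 15 rose and 1 fell with time in WT ADX+ADR, and of 18 immediate early and stress genes 10 rose and 0 fell. In WT ADX those counts were 3 up and 2 down, and 0 up and 1 down.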

How the data were processed

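Bulk RNA-seq of tibialis anterior muscle gave 47 libraries in 12 groups. Values were deposited as log2 FPKM per gene for 13500 genes, made by the authors on GRCm38. The submitters' processing notes name HISAT2 2.1.0, edgeR 3.30.0, featureCounts 1.6.2, FastQC 0.11.8 and Trim Galore 0.5.0, without their roles. The strand setting is not given in the sources used here. The lowest deposited value, -6.64, is the log2 of 0.01, so FPKM was taken as 2 to the power of the value, minus 0.01, and analysed as log2(FPKM + 1). A fold on this scale understates the change of low genes. Gene symbols were matched for 13441 identifiers. Gene positions are on GRCm38, from GENCODE.

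The members, gene lists and tests were chosen with earlier results of these data known. Time differences in WT ADX, RE-RE ADX and WT ADX+ADR, the adrenaline level differences and the differences between time effects were tested with limma 3.58.1 (R 4.3.3; empirical Bayes with a mean-variance trend, two-sided) on 23 libraries with 6 group means and 17 residual degrees of freedom. Genes needed 1 FPKM in at least 3 libraries, which 11652 did, and p-values were Benjamini-Hochberg adjusted over those, with a threshold of 0.05. The rule and figures used Python 3.11.15, and the fit was tested on simulated data. Genes are named from each class's largest differences without a 0, from the lists, from the smallest adjusted p of each test and next to the threshold. Others were named after their values were seen. Alternatives were the offset, filter, scaling, samples modelled, age, replicate block and left-out libraries. Depth is known only from the steps of low values, so no counting intervals are given. Glns-ps1 and Glul, and Mt1 and Mt2, can share reads.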

Additional observations from a re-analysis of the deposited data

Results flagged for a closer look

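In 214 groups of 4 libraries examined for 20 of the genes named here, 21 had a library far from the other 3. Chance would flag about 1 group in 20 if values were normal and groups independent. Neither holds here, as 3 libraries at 0 flag any other value and the genes share libraries. The 21 are therefore not set against that rate. RE-RE ADX at ZT0 held 10 of the 21. Replicate 4 there had Pik3r1 at 7.32 FPKM (the others at 2.9 to 3.54), Mt1 at 20.9 FPKM (3.23 to 4.82), Lcn2 at 2.64 FPKM (others listed at 0), Hes1 at 5.62 FPKM (9.41 to 9.73), Junb listed at 0 FPKM (10.8 to 12) and Apold1 at 0.201 FPKM (2.47 to 2.63). Replicate 1 there had Glul at 29.3 FPKM (54.6 to 58.8), Sult1a1 at 9.48 FPKM (10.8 to 11) and Dgat2 at 9.08 FPKM (13.5 to 14.1). Both libraries are among the 7 that stand apart. Cxcl12 in replicate 2 of the same group was at 16.4 FPKM (14.3 to 14.6).

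In WT ADX at ZT12, Pik3r1 was at 0.269 FPKM in replicate 7 (others listed at 0), Hes1 at 6.91 FPKM in replicate 7 (9.08 to 9.48), Xdh at 4.45 FPKM in replicate 6 (5.05 to 5.16) and Tacc2 at 37.1 FPKM in replicate 6 (41.5 to 42). Under dexamethasone, Mt1 was at 249 FPKM in ZT0 replicate 4 (209 to 213), Irs2 at 5.48 FPKM in ZT12 replicate 5 (3.81 to 4.03) and Cpeb1 at 1.86 FPKM in ZT12 replicate 7 (3.42 to 3.71). In the sham conditions, Mt1 was at 9.58 FPKM in RE-RE ZT0 replicate 3 (0 to 0.382) and at 0.636 FPKM in WT ZT0 replicate 4 (others listed at 0), and Junb at 3.47 FPKM in WT ZT12 replicate 8 (0 to 0.568). Lcn2 was at 0.0289 FPKM in RE-RE ADX ZT12 replicate 5, with the others listed at 0.

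Time effects differed between WT ADX+ADR and WT ADX by the limma test of the difference itself for 9 genes. The difference was -1.87 for Tacc2, -2.93 for Mir133a-1, -1.33 for Tmem37, -1.41 for Dgat2 and -0.75 for Cpeb1, and 2.43 for Hes1, 1.53 for Irs2, 2.95 for Apold1 and 3.87 for Junb. Between RE-RE ADX and WT ADX it was -2.0 for Tacc2.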

How the results depend on the processing

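With an offset of 0.01 in place of 1 the rule gave 295 genes, with a threshold of 0.5 it gave 31, and with genes holding a 0 left out 54. Leaving out 1 library gave 77 genes (without WT ADX+DEX ZT0 replicate 4) to 101 (without RE-RE sham ZT12 replicate 5). Of the genes called, modelling only the groups compared left 2 in WT ADX, 0 in RE-RE ADX and 27 in WT ADX+ADR. Leaving out genes with a 0 left 10 in WT ADX, and 34 and 39 for the adrenaline level difference at ZT0 and ZT12. That alternative tested fewer member genes, so its counts are not directly comparable with the main ones. In RE-RE ADX, 2 were called with all 47 libraries and 0 without those that stand apart, and the genotype difference called 2 with an offset of 0.01. Leaving out 1 library gave 9 to 22 in WT ADX (without ZT0 replicates 2 and 1), 1 to 3 in RE-RE ADX, 14 to 16 in WT ADX+ADR, 57 to 62 and 62 to 72 for the adrenaline level difference at ZT0 and ZT12, 7 to 11 for its time effect and 1 to 2 for the genotype difference. Of 84 called results for named genes, 61 kept their call in all alternatives run and 23 lost it in at least 1, and none reversed. The causes were not tested.

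With a replicate block, the adrenaline level difference called 56 genes at ZT0 and 58 at ZT12. Same-numbered libraries had correlations of deviations from 0.02 to 0.12 at ZT0 and -0.22 to 0.06 at ZT12. These few weak values give no sign of pairing by number, but cannot exclude a shared day or batch. No paired analysis was possible for the time comparisons because ZT0 and ZT12 share no replicate numbers.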
